A study of Mus musculus with 2 samples.

Results

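The genes described here are *Bcas2* and 9 genes whose proteins join it in the Prp19/CDC5L splicing complex: *Cdc5l*, *Prpf19*, *Plrg1*, *Ctnnbl1*, *Cwc15*, *Crnkl1*, *Xab2*, *Isy1* and *Syf2*. They were chosen by gene symbol, with earlier results of these data known, and make up 10 of the 39695 gene entries in the deposited tables. RNA from whole testes of 9-day-old (P9) mice was sequenced in 2 libraries, 1 from control males and 1 from *Bcas2F/-;Vasa-Cre* males (*Bcas2F/-;V-cre* in the plots). The library sizes behind the values, inferred from the RPKM values themselves, were 19918750 reads in the control and 19331687 in the mutant. The study reports larger numbers of clean and mapped reads for both. Sequencing was paired-end, and whether the inferred sizes count single reads or read pairs is not given, so the numbers may not be in the same unit. The reads given below for single genes are in the unit of the inferred sizes. Control males were *Bcas2F/-*, so a floxed and a deleted allele of *Bcas2* were present in both genotypes, and only the mutant carried *Vasa-Cre*, a transgene that expresses the recombinase in germ cells. The labels give C57BL/6 as the strain, whereas the methods of the study describe a mixed 129/C57BL/6 background. How many mice contributed to a library is not given in the sources used here. The exons removed from the deleted allele are also not named there, and reads from exons that such an allele keeps would count towards *Bcas2*.

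The Prp19/CDC5L complex joins the spliceosome before the first cut of an intron, and it helps to shape the catalytic centre and to hold it together while both steps of splicing take place. CDC5L, PRPF19, PLRG1 and BCAS2 form its core, with CTNNBL1 and CWC15 bound to it, while CRNKL1, XAB2, ISY1 and SYF2 sit on the same catalytic spliceosome as scaffold and intron-binding proteins. Such splicing factors are made in nearly all cells, germ cells and somatic cells of the testis included. The RNA of a whole testis therefore holds *Bcas2* transcripts from cells in which *Vasa-Cre* is not active.

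*Bcas2* lies on the plus strand of chromosome 3 of GRCm38, the assembly that mm10 names, from 103171655 to 103179166 (GENCODE M21). Its longest coding transcript has 7 exons and 675 coding bases. Promoter sequences from RefSeq on GRCm38.p6, 250 bases before to 50 bases after the gene start, were found for all 10 members. That of *Bcas2*, chr3:103171405-103171704, is shown because it lies between *Bcas2* and the gene upstream, whose level is described further on. That of *Prpf19*, chr19:10894981-10895280 on the plus strand, is shown for comparison, as a partner with nearly equal levels in both libraries. Capitals mark CACGTG, the E-box, and TGACGTCA, the cAMP response element, in *Bcas2*, and CCGGAAG, a core of ETS family sites, in *Prpf19*.
Bcas2: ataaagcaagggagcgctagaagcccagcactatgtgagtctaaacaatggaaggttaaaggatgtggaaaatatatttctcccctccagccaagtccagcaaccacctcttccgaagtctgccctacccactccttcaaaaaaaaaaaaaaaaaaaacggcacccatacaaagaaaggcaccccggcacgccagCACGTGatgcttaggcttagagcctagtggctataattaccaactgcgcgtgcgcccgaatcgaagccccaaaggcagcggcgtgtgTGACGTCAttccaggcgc
Prpf19: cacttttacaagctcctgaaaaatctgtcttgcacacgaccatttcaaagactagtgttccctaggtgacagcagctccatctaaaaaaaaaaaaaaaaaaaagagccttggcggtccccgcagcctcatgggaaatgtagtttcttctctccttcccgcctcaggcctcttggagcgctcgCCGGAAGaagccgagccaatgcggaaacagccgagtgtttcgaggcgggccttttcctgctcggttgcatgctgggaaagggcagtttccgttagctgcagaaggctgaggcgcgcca

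Letters were searched on both strands. CACGTG was found in the promoter of 1 member, *Bcas2*, and in 8.09% of the 27025 genes with a promoter. TGACGTCA was found in 3 members, *Bcas2*, *Cdc5l* and *Xab2*, against 2.03% of genes. CCGGAAG was found in 5 members, *Prpf19*, *Cwc15*, *Xab2*, *Isy1* and *Syf2*, against 9.93% of genes, and not in *Bcas2*. The 10 members held between 15 and 35 CpG dinucleotides, against a median of 7 over all promoters. For members with several promoters the highest count was taken, whereas the median counts every promoter, so the values are not fully alike. CCAAT was found in 6 members against 41.1% of genes, and GGGCGG in 6 members against 38.2% of genes. TATAAA was found in 0 of the members and in 15.7% of genes. These matches describe the letters only, since binding was not measured.

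The targeted gene was examined first. The RPKM of *Bcas2*, reads per kilobase of gene scaled by library size (per 1000000 reads), was 39.5 in the control and 25.7 in the *Bcas2F/-;Vasa-Cre* library. These values rest on 1410 and 888 reads, recovered as whole numbers from the RPKM values. The level was thus 35.1% lower in the mutant library, in the direction that its label implies. On the scale used throughout, the log2 ratio of RPKM + 1 of the mutant over the control, the difference was −0.60. The 95% Clopper-Pearson interval of the log2 RPKM ratio without the added 1, computed from the share of reads in the mutant library, ran from −0.75 to −0.50. Such intervals cover counting error only. Each genotype had 1 library, so the spread between animals is unknown, and p-values are left out. Fewer cells of a type and less RNA per cell cannot be told apart in RNA of a whole testis.

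The ratio was computed for 14831 genes whose RPKM averaged 1 or more over both libraries. A log2 ratio as low as that of *Bcas2* or lower was found for 224 of them (1.51%), *Bcas2* included. Among the 4869 genes averaging 20 to 100 RPKM, to which all 10 members belong, there were 21 such genes, and the SD of the log2 ratios was 0.167. *Bcas2* thus lay near the low end of genes of its level, but was not alone there.

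**Figure D1:**
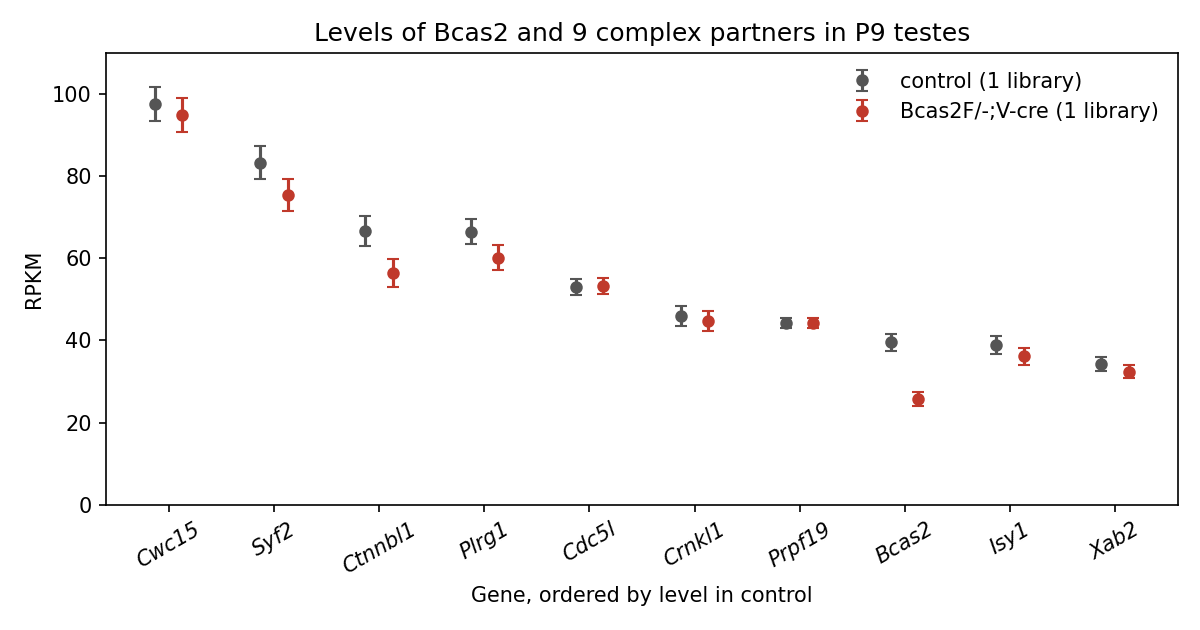
RPKM (y axis) of the 10 complex members (x axis, ordered by their control level) in the control library (grey) and the *Bcas2F/-;Vasa-Cre* library (red), with 1 library per genotype and bars for exact 95% Poisson intervals of the reads. *Bcas2* goes from 39.5 to 25.7 with bars far apart, whereas the other 9 genes have bars that overlap or lie close together.

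The other core genes did not share this difference. *Cdc5l*, which encodes a Myb-like scaffold of the complex, had an RPKM of 53.0 in the control and 53.2 in the mutant library, from 3154 and 3075 reads. Its log2 ratio was 0.01, with an interval from −0.07 to 0.08. *Prpf19*, which encodes the ubiquitin ligase that gives the complex its name, had 44.2 and 44.3 RPKM from 5294 and 5148 reads. Its log2 ratio was 0.00, and its interval from −0.05 to 0.06 was the narrowest of the 10 genes. Neither scaffold gene differed between the libraries beyond counting error. *Plrg1*, which encodes a WD40 repeat protein that binds CDC5L, had 66.5 and 60.1 RPKM from 1770 and 1554 reads. Its log2 ratio of −0.14 had an interval from −0.24 to −0.05, which does not reach 0.

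Among the proteins attached to the core, *Ctnnbl1* had the lowest log2 ratio of the 9 partners. It encodes an armadillo repeat protein that binds CDC5L, and its RPKM was 66.5 in the control and 56.3 in the mutant library, from 1312 and 1078 reads. The log2 ratio was −0.24, with an interval from −0.36 to −0.12, and 1652 of the tested genes (11.1%) were as low or lower. *Cwc15*, which encodes a small protein of the catalytic spliceosome, had the highest level of the complex, with 97.5 and 94.9 RPKM from 2158 and 2038 reads. Its log2 ratio was −0.04, and its interval from −0.13 to 0.05 held 0.

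The scaffold and intron-binding partners had log2 ratios from −0.14 to −0.04. *Crnkl1* and *Xab2* both encode proteins built from HAT repeats, helical repeats common in RNA-processing proteins. *Crnkl1* had 45.9 and 44.8 RPKM from 1383 and 1309 reads. Its log2 ratio was −0.04 and the interval ran from −0.15 to 0.07. *Xab2*, whose protein also binds the repair factor XPA, had 34.3 and 32.4 RPKM from 1606 and 1474 reads. Its log2 ratio was −0.08 and the interval ran from −0.18 to 0.02. The intervals of both held 0. *Isy1*, which encodes a partner of XAB2 on the intron, had 38.8 and 36.1 RPKM. Its log2 ratio was −0.10, and its interval from −0.22 to 0.01 is the widest that its values allow, since several gene lengths fit them and the smallest, with 1253 and 1130 reads, was used. With 2 times these reads, an alternative chosen after seeing the data, the interval ran from −0.19 to −0.02 and did not hold 0. *Syf2*, which encodes a small protein that contacts the CRNKL1 scaffold, had 83.2 and 75.4 RPKM from 1688 and 1484 reads. Its log2 ratio of −0.14 had an interval from −0.24 to −0.04, close to that of *Plrg1*.

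**Figure D2:**
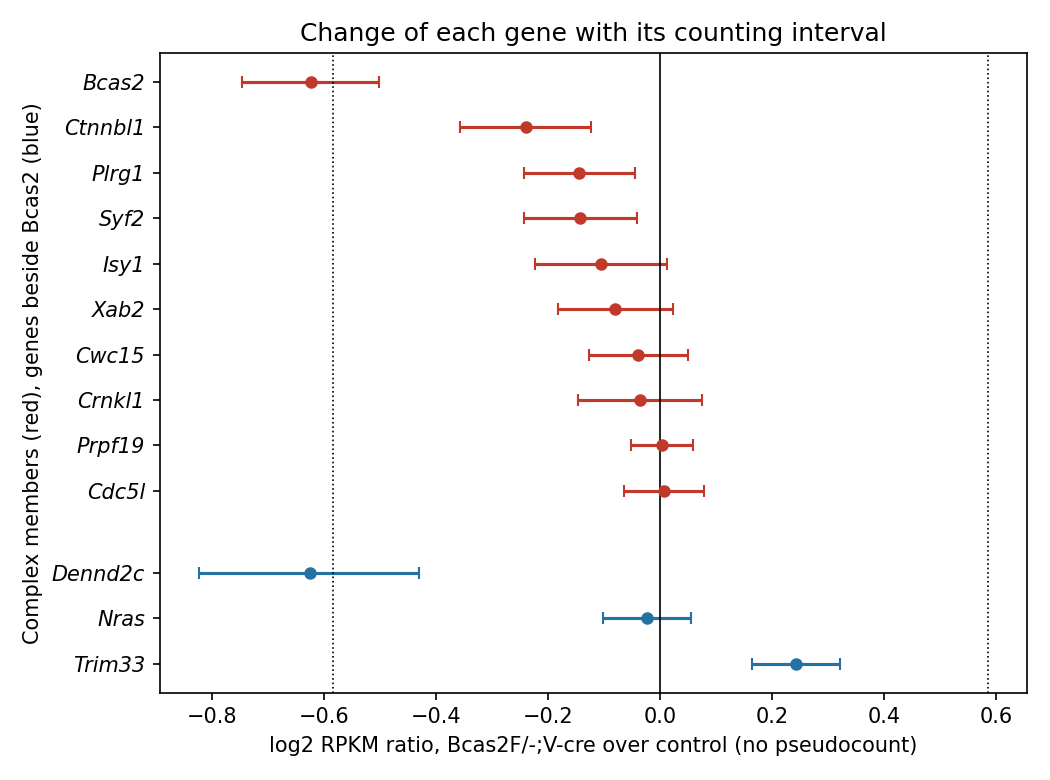
Log2 RPKM ratio of the *Bcas2F/-;Vasa-Cre* over the control library, without a pseudocount (x axis). Red points are the 10 complex members and blue points the tested protein-coding genes beside *Bcas2*. Bars are 95% Clopper-Pearson intervals for counting error, and dotted lines mark 1.5-fold. The intervals of *Bcas2*, *Ctnnbl1*, *Plrg1* and *Syf2* lie below 0, and *Bcas2* and *Dennd2c* lie beyond the left dotted line.

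All 10 members passed the filter on low values. Of these, 1 gene, *Bcas2*, was 1.5-fold or more lower and 0 were 1.5-fold or more higher, where 1.5-fold is the lower threshold of the study. Among all tested genes, 1.69% were as much lower and 1.57% as much higher. *Bcas2* stood only just past this threshold, which is 0.58 on the log2 scale, and it lay just short of it when RPKM was rescaled to the same sum in both libraries, so that 0 members passed. Of the 9 partners, 7 had a log2 ratio below 0 and 2 above, while 46.3% of all tested genes were below 0. Their median log2 ratio was −0.08, against 0.02 over all tested genes. The counting interval lay wholly below 0 for 3 of the 9 partners, *Ctnnbl1*, *Plrg1* and *Syf2*, and wholly above 0 for 0. The first count was 4, *Isy1* included, with 2 or 3 times the reads for *Isy1*. Over the 14332 tested genes with recovered reads, 17.1% lay wholly below 0 and 18.9% wholly above, shares that also rest on the smallest read number for genes such as *Isy1*. Many tested genes thus differ between 2 libraries by more than counting error, and a low ratio of a single partner is read against that background. These shares cover genes of all read depths, and more reads give narrower intervals. The share among genes as deeply covered as the partners was not computed, so the count of partners has no matched share beside it.

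**Figure D3:**
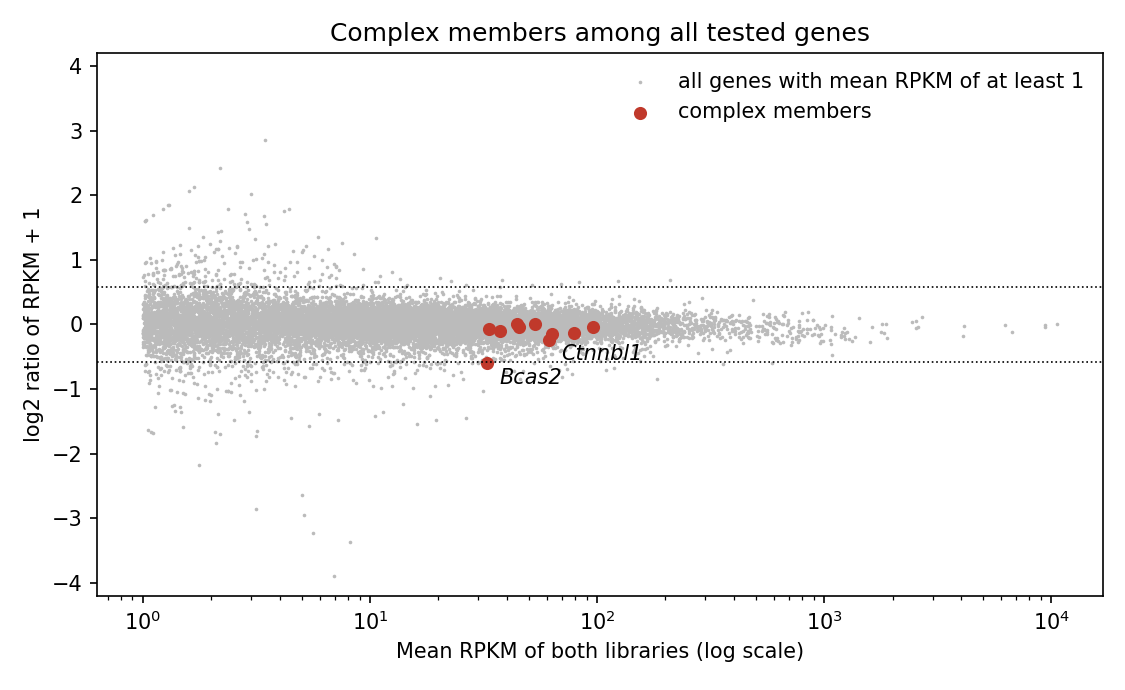
Log2 ratio of RPKM + 1 (y axis) against the mean RPKM of both libraries (x axis, log scale) for the 14831 tested genes (grey) and the 10 complex members (red), with dotted lines at 1.5-fold. *Bcas2* sits at −0.60, near the lower edge of the cloud at its level, and the 9 partners lie inside it between −0.24 and 0.01.

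*Bcas2* was also set against each partner within the same libraries. The log2 ratio of *Bcas2* was 0.53 below the median of the partners, a difference of −0.53, and −0.37 relative to *Ctnnbl1*, the lowest of them. The 9 pairs with a partner all use the same reads of *Bcas2*, so they are not independent of one another. In each of the 9 pairs, the log2 RPKM ratio of *Bcas2* was below that of the partner by more than counting error. These differences, without a pseudocount and so independent of the scaling of the libraries, ran from −0.63 relative to *Cdc5l*, with a 95% normal interval on the log scale from −0.77 to −0.49, to −0.38 relative to *Ctnnbl1*, with an interval from −0.55 to −0.22. The summed RPKM of the 9 partners was 530 in the control and 498 in the mutant library. *Bcas2* made up 6.94% of the summed RPKM of all 10 genes in the control and 4.90% in the mutant library.

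The order of the levels was nearly the same in both libraries, apart from *Bcas2*. RPKM values in the control ran from *Cwc15* (97.5) and *Syf2* (83.2) over *Ctnnbl1*, *Plrg1*, *Cdc5l*, *Crnkl1* and *Prpf19* to *Bcas2* (39.5), *Isy1* (38.8) and *Xab2* (34.3). *Bcas2* was in place 8 of 10 in the control and last in the mutant library. Its exact 95% Poisson interval in the control, from 37.5 to 41.7 RPKM, overlapped that of *Isy1*, from 36.7 to 41.0. In the mutant library it ran from 24.0 to 27.4 and lay below that of *Xab2*, the next higher gene, which began at 30.8. *Ctnnbl1* and *Plrg1* could not be ordered within counting error in either library, and neither could *Crnkl1* and *Prpf19*. *Cdc5l* and *Crnkl1* were apart in both.

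Levels of different genes depend on the lengths by which the authors divided. The length behind *Bcas2* was 1790 bases, the mean of its 6 annotated transcripts, whereas *Prpf19* was divided by 6009 and *Cwc15* by 1111 bases, close to or at the length of their longest annotated transcript. Per kilobase of the longest coding transcript in GENCODE M21, an alternative chosen after seeing the data, *Bcas2* stood at 48.3 in the control and 31.3 in the mutant library. This put it in places 4 and 6 of 10, and *Isy1* became the lowest gene, at 10.8 in the control. That place of *Isy1* rests on its smallest read number, since 2 times the reads gave 21.6, above *Crnkl1* at 20.3. *Cwc15* and *Syf2* were the highest genes by both lengths. Length does not affect the comparison of the libraries for 1 gene.

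The protein-coding genes beside *Bcas2* on chromosome 3 were read as well. A processed pseudogene, *Gm27024*, lies closer, from 103179689 to 103180443 on the minus strand, and its level is not described here. *Dennd2c*, a gene on the strand of *Bcas2* that encodes a DENN domain protein, a class of Rab GTPase regulators, ends 1885 bases before *Bcas2* starts. It lies from 103102604 to 103169769, and its RPKM was 8.11 in the control and 5.26 in the mutant library, from 555 and 349 reads. It was 35.2% lower, next to 35.1% for *Bcas2*. Its log2 RPKM ratio was −0.63, with an interval from −0.82 to −0.43, and −0.54 on the scale of RPKM + 1, where it is just short of 1.5-fold. The next expressed protein-coding genes did not have this difference. *Nras*, a RAS GTPase gene that ends 103740 bases before *Bcas2*, had 43.1 and 42.4 RPKM, a log2 ratio of −0.02 with an interval from −0.10 to 0.06. *Trim33*, which encodes a transcriptional cofactor and starts 100126 bases after *Bcas2* ends, had 14.1 and 16.7 RPKM, a log2 ratio of 0.23 with an interval from 0.16 to 0.32. *Ampd1*, with 3 and 7 reads, and *Syt6*, with 4 and 0, were too weakly covered for a ratio, and *Atg4a-ps* was listed at 0 in both libraries. Why *Dennd2c* and *Bcas2* differed alike was not tested.

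With 2 libraries, likeness to *Bcas2* can only mean a similar level in each. By the distance of log2(RPKM + 1) over both libraries, the nearest of the tested genes was *Wdr36*, which encodes a WD40 protein of ribosome assembly, with 39.2 and 25.4 RPKM and a distance of 0.017. *Rpl10l*, a retrogene of a ribosomal protein expressed in testis, followed with 39.4 and 26.2 RPKM. *Wdhd1*, a DNA replication gene, had 39.0 and 26.5 RPKM, *Eppin*, which encodes a protease inhibitor of the male tract, 38.9 and 26.8, and *Fancd2*, a DNA crosslink repair gene, 38.2 and 26.5. No partner of the complex was among these 5 genes.

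Of the other spliceosome genes that work with the complex, 0 passed 1.5-fold. All tested genes held 1.69% as much lower and 1.57% as much higher, and 46.3% were below 0 by any amount. Counting intervals lay wholly below 0 for 17.1% and wholly above for 18.9% of tested genes with recovered reads, shares not matched to read depth. Of 20 Prp19-related and catalytic-stage genes, 19 were tested, 11 below and 8 above 0, with a median log2 ratio of −0.05. The lowest was *Ppil1*, which encodes a peptidyl-prolyl isomerase, with 84.8 and 70.5 RPKM and a log2 ratio of −0.26. The highest was *Yju2*, a splicing factor gene listed under its older symbol *Ccdc94*, with a log2 ratio of 0.14 from 229 and 247 reads and an interval from −0.11 to 0.42. *Rnf113a2* was listed at 0 in both libraries. The 8 second-step and release factors had a median of 0.02, from −0.09 for the helicase gene *Dhx8* to 0.33 for *Gcfc2*, whose product acts in the release of the intron lariat. The 9 remodelling ATPases and U5 core genes had a median of −0.08, with 7 below and 2 above 0. They ran from −0.29 for *Dhx16*, the helicase gene of spliceosome activation, with 51.2 and 41.7 RPKM, to 0.19 for *Ddx46*, with 36.5 and 41.8 RPKM. The counting interval lay wholly below 0 for 7 of the 19 Prp19-related, 0 of the 8 second-step and 6 of the 9 remodelling genes. It lay wholly above 0 for 2, 1 and 2 of them. The log2 ratios of the partners of *Bcas2* lay within the range of the spliceosome genes around them.

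The complex also works in DNA repair, where PRPF19 ubiquitinates RPA, the single-strand DNA-binding protein, and BCAS2 binds it. Of 7 RPA and ATR pathway genes, 0 passed 1.5-fold, 6 were below 0, and the median log2 ratio was −0.17. The counting interval lay wholly below 0 for 5 of these 7 genes. Over all tested genes, 46.3% had a log2 ratio below 0, 1.69% were 1.5-fold or more lower and 1.57% as much higher. An interval wholly below 0 was found for 17.1% of those with recovered reads, a share not matched to read depth. *Rpa2*, the middle subunit of RPA, had 166 and 122 RPKM, based on 2616 and 1876 reads, and the lowest log2 ratio of the list, −0.43. *Rpa3*, the small subunit, had 42.1 and 45.4 RPKM, a log2 ratio of 0.11. Of 7 genes linked to XAB2 in transcription-coupled repair, 0 passed 1.5-fold and the median was −0.03, from −0.11 for the helicase gene *Aqr* to 0.19 for *Ercc6*, which encodes the Cockayne syndrome protein CSB.

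Most germ cell markers were also lower in the mutant library. Among all tested genes, 46.3% were below 0 and 1.69% were 1.5-fold or more lower. Of 12 spermatogonia markers, 10 were below 0 and 2 were 1.5-fold or more lower, with a median log2 ratio of −0.34. Their summed RPKM was 800 in the control and 622 in the mutant library. *Uchl1*, the most abundant, had 279 and 224 RPKM. *Stra8*, a gene of meiotic entry, had 87.2 and 56.8 RPKM, and *Nanos3*, a germ cell survival gene, 15.2 and 7.16. The other 2 markers were higher, with counting intervals of the log2 RPKM ratio wholly above 0. *Sohlh2*, a transcription factor gene of spermatogonia, had 17.7 and 20.5 RPKM with an interval from 0.08 to 0.35. *Nanos2*, a gene of spermatogonial stem cells, had 1.01 and 1.83 RPKM from 29 and 51 reads with an interval from 0.17 to 1.57. *Bcas2* lay 0.26 below the median of these markers, a difference of −0.26, while *Stra8* and *Nanos3* were lower than it, and all 9 partners were above that median. Of 8 prophase I markers, 7 were tested and 7 were below 0, with a median of −0.37. *Sycp2*, the most abundant by mean, had 23.3 and 22.0 RPKM, and 1 gene, the meiotic cohesin gene *Smc1b*, was 1.5-fold or more lower at 25.6 and 11.3 RPKM. By real-time RT-PCR on P9 testes, the study found *Ddx4* (as *Mvh*), *Dazl*, *Kit*, *Stra8*, *Sohlh1*, *Sohlh2* and *Nanos2* similar in both genotypes. It found *Dmc1*, *Sycp1* and *Sycp3* (as *Scp1* and *Scp3*) and *Smc1b* significantly lower in the mutant.

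Somatic markers differed less or in the other direction. For comparison, 46.3% of all tested genes were below 0, 1.69% were 1.5-fold or more lower and 1.57% as much higher. All 7 tested Sertoli cell markers were above 0, with a median of 0.12, and *Clu* had 2593 and 2813 RPKM, while *Rhox5* was listed at 0 in both libraries. The 6 Leydig cell markers had a median of 0.20, with *Hsd3b1* at 189 and 168 RPKM and 1 gene, *Cyp17a1*, 1.5-fold or more higher at 94.8 and 152 RPKM. The medians were −0.05 for peritubular myoid cells (*Acta2*, 344 and 314 RPKM), −0.06 for endothelial cells (*Cdh5*, 18.7 and 17.9) and −0.19 for macrophages (*C1qa*, the most abundant, log2 ratio −0.32). Blood cell markers stood apart. The 4 tested neutrophil markers, *S100a8*, *S100a9*, *Ngp* and *Camp*, were all 1.5-fold or more lower, with a summed RPKM of 26.3 in the control and 3.16 in the mutant library over the 5 genes listed, and a median of −2.11, *S100a9* having 9.83 and 0.401 RPKM. Red cell markers had a median of −0.32, with *Hbb-bs* at 551 and 596 RPKM and 1 gene, the anion exchanger gene *Slc4a1*, 1.5-fold or more lower at 15.7 and 0.607 RPKM. The testis markers were thus present in both libraries, with lower summed germ cell and neutrophil marker levels in the mutant one. Sums were also lower there for macrophages (47.7 and 42.4 RPKM) and peritubular myoid cells (523 and 489). The same held for endothelial cells (38.9 and 37.1) and red cells (783 and 775). Sums were higher in the mutant library for Sertoli cells (3125 and 3416) and Leydig cells (387 and 431). The part of this makeup in the values of *Bcas2*, *Dennd2c*, *Ctnnbl1*, *Plrg1*, *Syf2* and the RPA genes was not tested.

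**Figure D4:**
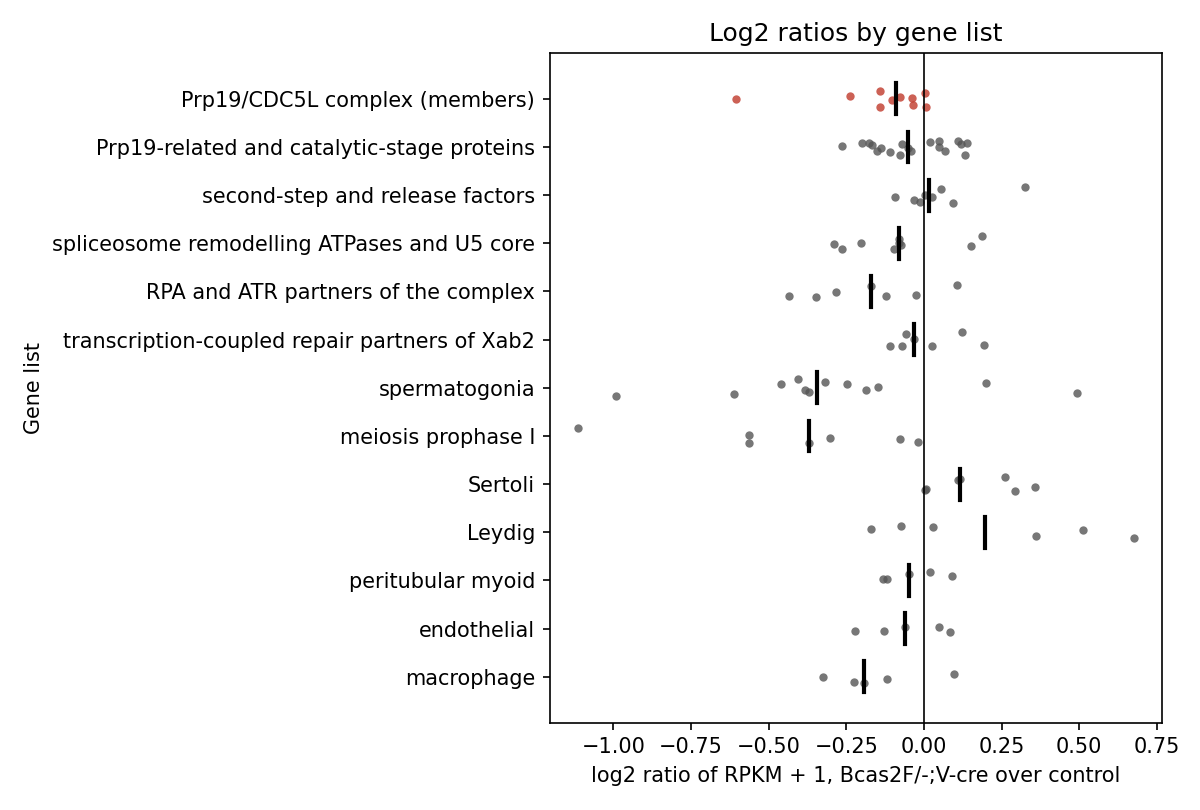
Log2 ratio of RPKM + 1 (x axis) of each tested gene in the complex (red) and in 12 other gene lists (grey, y axis), each point 1 gene with vertical jitter and black bars at the list medians; the red cell and neutrophil lists are left out for scale. *Bcas2* is the red point at −0.60, beyond the spliceosome and repair lists and inside the range of the spermatogonia markers, whose median is −0.34.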

How the data were processed

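The authors extracted RNA from whole testes, made NEBNext Ultra libraries, sequenced paired ends, aligned reads with TopHat2 2.0.9 to mm10 (submitters' processing notes), used HTSeq to count reads in genes, and deposited the counts as RPKM. The annotation release and gene lengths behind RPKM are not given in the sources used here. RPKM corrects for length and depth, not for RNA composition. Of 39695 entries, 37606 (94.7%) matched GENCODE M21 on GRCm38 by identifier.

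Log2 ratios of RPKM + 1 were computed with the deposited scaling for the 14831 genes that averaged 1 RPKM or more. The added 1 understates the change of low genes. With 1 library per genotype no test was run. Since 1 read adds a fixed step to a gene's RPKM, the reads behind it form a ratio of whole numbers. Library sizes of 19918750 reads in the control and 19331687 in the mutant followed from 795 of 1743 genes with 1 annotated transcript that gave the same value. Whole reads were recovered for 14332 tested genes (96.6%), taking an annotated length where one fitted and otherwise the smallest whole length, which can only widen an interval. The procedure was tested on simulated data in which every gene had an annotated length, so recovery by another whole length was not checked. In these data, 7714 tested genes had an annotated length. The members and all gene lists were chosen with earlier results of these data known. Genes named were the 10 members, of each other pathway list any gene past 1.5-fold and the genes with the lowest and highest ratio, of each cell type list the gene with the highest mean RPKM, 3 protein-coding neighbours on each side of *Bcas2* and the 5 genes nearest in level. Further cell type genes past 1.5-fold were named after their values were seen, as were *Sohlh2*, *Nanos2* and genes listed at 0. *Ccdc94* was matched to *Yju2* through RefSeq synonyms. Alternatives were pseudocounts of 0.1 and 0.01, a median ratio set to 0, RPKM rescaled to 1000000, no filter or a mean RPKM of at least 5, a 2-fold threshold and the ratio of reads. Computations ran in Python 3.11.15 with pandas 2.3.3, scipy 1.17.1 and numpy 2.4.6, and plots in matplotlib 3.10.9. Splicing was not analysed here, because the values are per gene.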

Additional observations from a re-analysis of the deposited data

How the results depend on the processing

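Over the 7 alternatives that apply to single genes, the log2 ratio of *Bcas2* ran from −0.62 to −0.58, its difference from the partner median from −0.54 to −0.53, and the partner median from −0.09 to −0.05. Each of the 9 partners moved by less than its counting interval. *Cdc5l* and *Prpf19* had a log2 ratio just below 0, of −0.01 each, with the median ratio set to 0, and above 0 otherwise. The count of members past 1.5-fold was 0 with RPKM rescaled to 1000000, where *Bcas2* lay at −0.58, and 0 at the 2-fold threshold, against 1 otherwise. The background counts of genes 1.5-fold or more lower and higher, 251 and 233 as reported, were 457 and 454 with a pseudocount of 0.1, 485 and 491 with 0.01, 468 and 511 without a filter, 104 and 46 with a mean RPKM of at least 5, 56 and 63 at 2-fold, and 483 and 485 by the ratio of reads. With rescaling, 356 were lower and 434 higher. Fewer or more genes tested account for the change with the filter, and the stricter threshold for that at 2-fold. A smaller or absent pseudocount understates the change of low genes less, which raises the counts. Rescaling raised the values of both libraries, whose RPKM sums were 639434 in the control and 627010 in the mutant. The added 1 and the filter thus weighed less, and the ratio between the libraries shifted. The part of each in the counts was not tested. The neutrophil median was −3.60 with a pseudocount of 0.01 and −3.63 by the ratio of reads. No paired analysis was possible because each genotype had 1 library, and leaving out a replicate was not possible for the same reason. The width of the counting intervals of *Bcas2* and its partners depends on the recovered reads. The spread between animals, which these intervals do not cover, is unknown.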
